A study of Mus musculus with 6 samples.

Results

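The retinoid and alcohol dehydrogenase genes described here are Adh1, Adh7, Aldh1a1, Aldh1a2, Aldh1a3, Aldh1a7, Aldh3a1, Crabp2 and Rarb. The members were chosen by name, as every probe set of an Affymetrix expression array whose annotation gave exactly 1 of these symbols. This rule found 12 probe sets of 45101, for 9 genes of 18193. Adh7 had 2 probe sets, Aldh1a3 had 3 and the other genes had 1 each. A gene is given by its brightest probe set, judged by the mean of the 6 arrays. Dim probe sets were kept, so all 9 genes were tested.

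The arrays were made from mouse bladder urothelium cut out of frozen, stained sections with a laser under the microscope (laser capture microdissection). Invasive carcinoma (2 arrays) and carcinoma in situ (2 arrays), a flat lesion within the epithelium, came from mice of genotype H-ras+/-, p53-/-, and normal urothelium (2 arrays) came from wild-type mice. All mice were FVB/N and 8 months old. The promoter that drives the H-ras transgene, and whether a capture held cells of 1 mouse or of several, is not given in the sources used here. Against normal urothelium the genotype and the lesion changed together, and only the comparison of the lesions held the genotype constant. Nothing ties the arrays to separate animals, so the p-values measure only how far these arrays spread, a spread that may be technical, and 2 arrays per group limit the precision.

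Retinol, which is vitamin A, is oxidised first to retinal by alcohol and retinol dehydrogenases and then to retinoic acid by retinaldehyde dehydrogenases of the Aldh1a family. Retinoic acid is carried to the nucleus by Crabp2 and binds retinoic acid receptors such as Rarb, which switch on target genes. Lack of vitamin A is known to turn the bladder lining into a keratinised squamous epithelium, so the pathway has long been tied to urothelial differentiation.

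Signals are given on the log2 scale after RMA (robust multiarray average) normalization, and the median of all values was 6.09. The array medians lay between 6.07 and 6.14. The log2 difference between the arrays of a group had a standard deviation over genes of 0.42 for invasive carcinoma, 0.22 for carcinoma in situ and 0.69 for normal urothelium. Sex-linked transcripts differed between and within groups. Xist, the RNA of the inactive X chromosome, read 10.28 and 6.43 in invasive carcinoma, 13.17 and 13.33 in carcinoma in situ, and 6.85 and 13.37 in normal urothelium. The Y-linked gene Kdm5d read 6.58 and 5.96 in invasive carcinoma, 2.90 and 2.84 in carcinoma in situ, and 8.28 and 7.62 in normal urothelium. Both carcinoma in situ arrays thus had high Xist and the lowest Y-linked signal, so that in the comparisons with carcinoma in situ the lesion and the sex-linked signal cannot be told apart. Invasive array 1 and normal array 2 held both signals, and the counts over the 9 genes are also given without them. Wherever 1 array of a group is left out, the lone array is assumed to vary like the arrays of the other groups. General epithelial markers were high on every array. Krt8 read 13.73 to 14.22 and Epcam 11.97 to 13.14 over the 6 arrays, with Cdh1 at 12.06 to 12.82.

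The alcohol dehydrogenase gene Adh1 and the aldehyde dehydrogenase gene Aldh1a7 fell in invasive carcinoma, while the retinaldehyde dehydrogenase genes Aldh1a3 and Aldh1a2 rose there. Aldh1a1 rose there too, right at the threshold. Aldh1a3 also rose in carcinoma in situ, and of its 3 probe sets only the brightest passed. Adh7 fell in both lesions by its second probe set but did not pass by its brighter one. Crabp2 and Rarb, which act downstream of the enzymes, did not pass the test in any of the 3 comparisons. The tests come from limma's moderated linear model over all 6 arrays, with p-values adjusted over 18193 genes by the Benjamini-Hochberg method and called under 0.05.

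**Figure D1:**
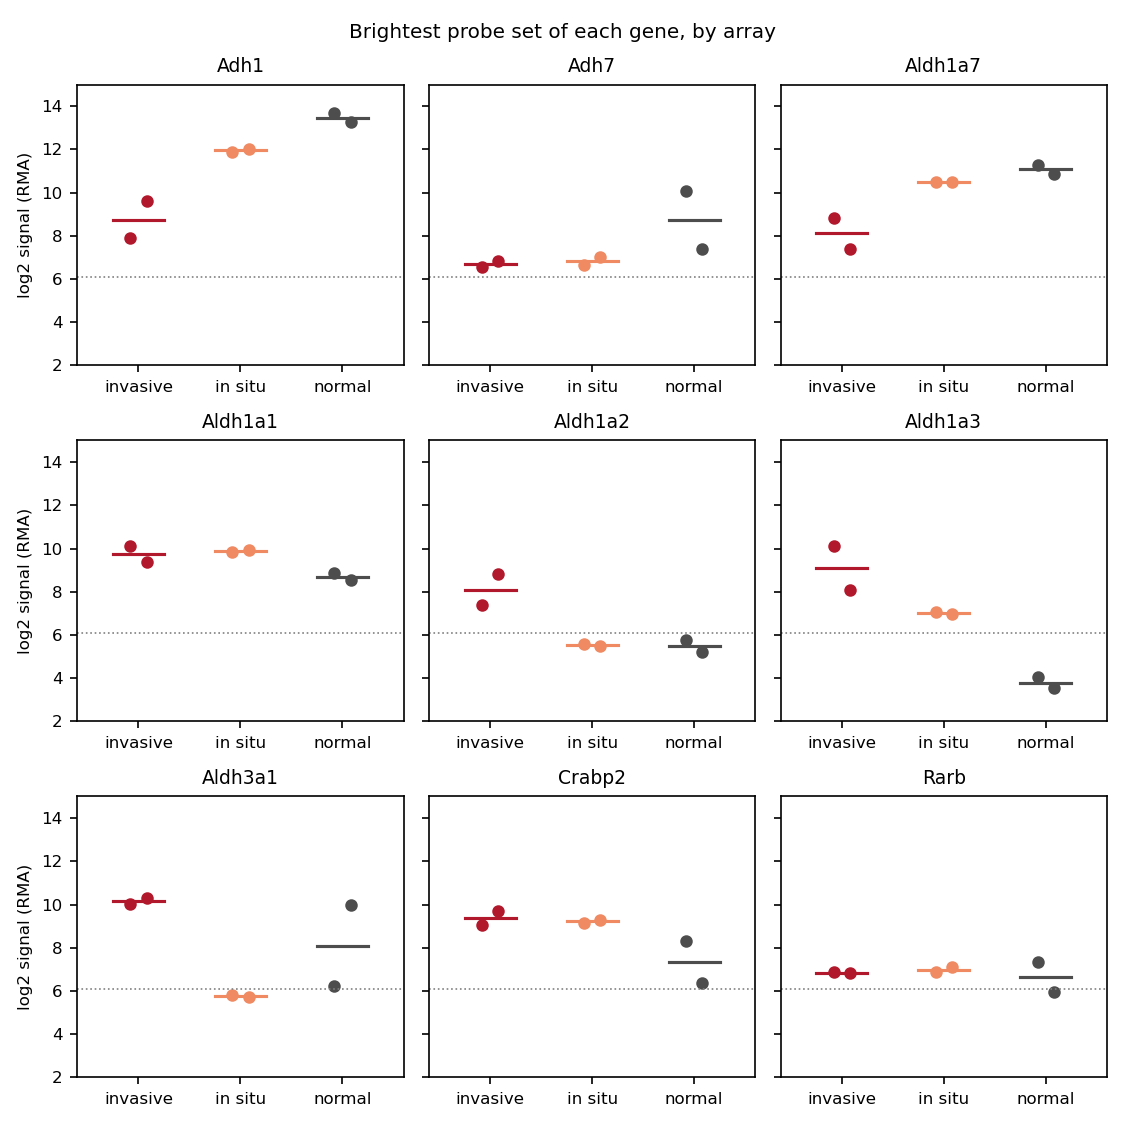
Log2 signal (RMA) of the brightest probe set of each of the 9 genes, with 1 point per array and a bar at the mean of each group of 2 arrays; the dotted line marks 6.09, the median of all values. Adh1 and Aldh1a7 are lowest in invasive carcinoma, Aldh1a3 is lowest in normal urothelium, and Aldh3a1 is split between the normal arrays at 6.21 and 9.97.

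The first step of the pathway was read by Adh1 and Adh7. Adh1 encodes the class I alcohol dehydrogenase, which oxidises ethanol and retinol. It read 7.89 and 9.60 in invasive carcinoma, 11.88 and 12.02 in carcinoma in situ, and 13.66 and 13.27 in normal urothelium. The groups did not overlap, and normal urothelium stood highest, followed by carcinoma in situ and then invasive carcinoma. In invasive carcinoma against normal urothelium Adh1 fell by 4.72 ± 0.54 on the log2 scale (SE, limma, 26.4-fold, adjusted p = 0.00387), with a mean of 8.75 ± 1.21 against 13.47 ± 0.28 (SD, n = 2 each). Between the lesions it fell by 3.21 ± 0.54 in invasive carcinoma (9.23-fold, adjusted p = 0.0302), a call that was lost without carcinoma in situ array 1 (-3.27, adjusted p = 0.228) or array 2 (-3.14, adjusted p = 0.253). The difference of carcinoma in situ from normal urothelium, -1.51 ± 0.54, did not pass (adjusted p = 0.160, 95% interval -2.86 to -0.17). The arrays hold a mixture of RNAs, so fewer cells of a type and less RNA per cell cannot be told apart. The fall in invasive carcinoma held in all 15 alternative settings (from -5.57 to -3.87, adjusted p up to 0.0210).

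Genes of the uroplakins, the plaque proteins of the bladder surface, fell in invasive carcinoma beside Adh1. Upk3a read 6.84 and 8.91 in invasive carcinoma, 11.58 and 11.71 in carcinoma in situ, and 14.09 and 13.63 in normal urothelium. Of the 15 urothelial markers 6 fell and 0 rose in invasive carcinoma against normal urothelium, among them Upk3a, Upk2, Upk1a and Upk1b. Krt8, Epcam and Cdh1 differed by 0.00, 0.18 and -0.20 in the same comparison and did not pass. In carcinoma in situ against normal urothelium, where Adh1 did not pass, 3 of the 15 fell and 1 rose. Upk1a (-2.08), Upk2 (-2.57) and Krt20 (-5.02) fell there, and Trp63 (1.76) rose. Between the lesions, where Adh1 fell, 4 of the 15 fell and 1 rose, Krt20 (3.15). Whether these shifts share a source with that of Adh1 was not tested.

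Adh7 encodes the class IV alcohol dehydrogenase, an enzyme of stomach and other epithelia that is active on retinol. Its brighter probe set, 1450110_at, read 6.55 and 6.83 in invasive carcinoma, 6.67 and 7.00 in carcinoma in situ, and 10.08 and 7.40 in normal urothelium. The normal arrays lay 2.68 apart, though both were above all lesion arrays. Neither lesion passed against normal urothelium by this probe set (-2.05 ± 0.82, adjusted p = 0.149, for invasive carcinoma, and -1.91 ± 0.82, adjusted p = 0.230, for carcinoma in situ). The second probe set, 1421058_at, read 6.14 and 6.56 in invasive carcinoma, 6.15 and 6.09 in carcinoma in situ, and 9.84 and 9.37 in normal urothelium. There the normal arrays were close, and the lesions lay near the median of all values. In a limma fit over 34945 probe sets this probe set fell by 3.26 ± 0.24 in invasive carcinoma (9.56-fold, adjusted p = 0.00138). It fell by 3.49 ± 0.24 in carcinoma in situ (11.2-fold, adjusted p = 0.00595), a call that was lost without carcinoma in situ array 1 (-3.52, adjusted p = 0.122) or array 2 (-3.45, adjusted p = 0.121). The difference between the lesions did not pass by either probe set (95% interval -2.17 to 1.89 for 1450110_at and -0.36 to 0.82 for 1421058_at, invasive minus in situ). Adh7 and Adh1 are neighbours on chromosome 3, with Adh6a next to Adh1, and Adh6a read 3.82 to 4.77 over all 6 arrays.

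**Figure D2:**
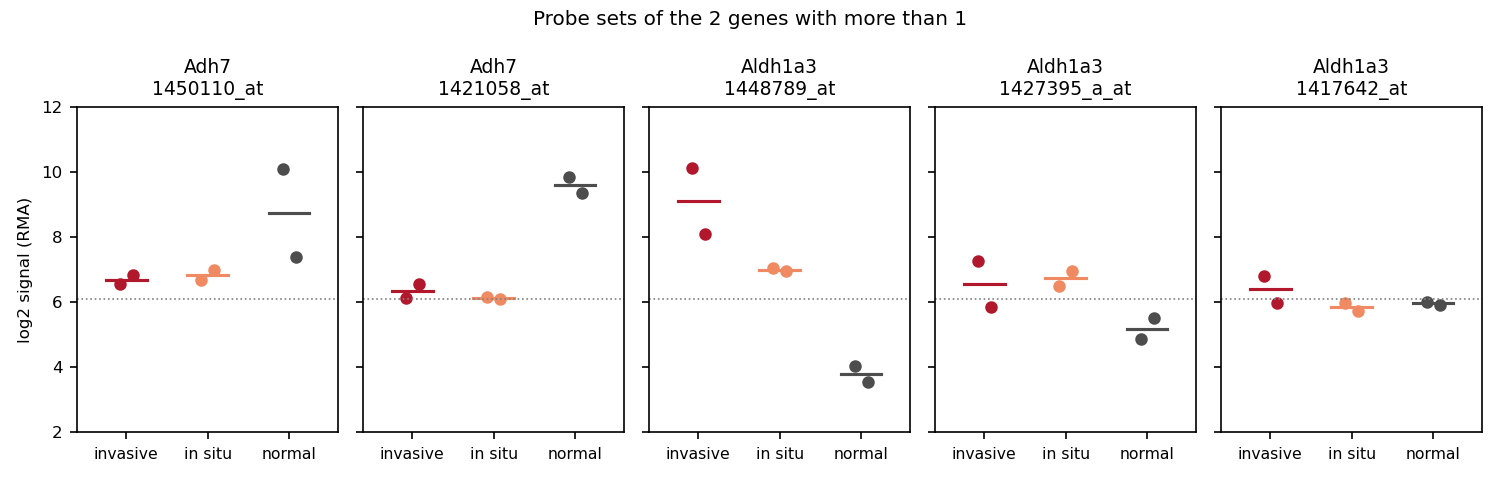
Log2 signal (RMA) of each probe set of Adh7 and Aldh1a3, with 1 point per array, a bar at each group mean and a dotted line at 6.09, the median of all values. The normal arrays agree for the second Adh7 probe set (9.84 and 9.37) but not for the first (10.08 and 7.40), and 1 of the 3 Aldh1a3 probe sets stayed between 5.74 and 6.82 on every array.

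Aldh1a1 and Aldh1a7 are neighbours on chromosome 19. Aldh1a1 encodes a cytosolic retinaldehyde dehydrogenase, and Aldh1a7 is its rodent paralogue. Their promoters are shown because the genes are similar around their start sites and moved in opposite directions in invasive carcinoma. RefSeq's table (GRCm38.p6) held 7 promoter windows, each running from 250 bases before a start site to 50 after it, for 6 of the 9 genes, with none for Aldh1a3, Aldh3a1 and Crabp2. Of the last 150 bases of the windows, 142 were the same in both genes and 8 differed (94.7% identity). Over the whole windows 221 of 315 aligned columns were identical (70.2%), and the other Aldh1a1 window had 50.6% identity to that of Aldh1a7. These stretches follow, 5′ to 3′, with the differing bases in capitals. They lie at chr19:20601868-20602017 on the plus strand for Aldh1a1 (the second of its 2 windows) and at chr19:20727507-20727656 on the minus strand for Aldh1a7.
Aldh1a1: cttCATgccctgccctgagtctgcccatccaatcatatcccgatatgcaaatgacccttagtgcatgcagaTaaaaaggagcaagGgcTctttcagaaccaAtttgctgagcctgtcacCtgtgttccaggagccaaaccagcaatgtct
Aldh1a7: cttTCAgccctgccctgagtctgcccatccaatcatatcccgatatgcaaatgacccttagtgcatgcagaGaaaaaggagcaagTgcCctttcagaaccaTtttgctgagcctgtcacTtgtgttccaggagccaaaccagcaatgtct

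Both stretches hold the octamer ATGCAAAT at position -56 and CCAAT at position -72, counted from the start site. On either strand the octamer was in 1.74% of the 32851 windows of 300 bases in the table and CCAAT in 37.4%. The letters ATAAAA, a form of the TATA box, stood at position -30 in Aldh1a1 and in 18.5% of all windows (both strands, overlaps with TATAAA included). In Aldh1a7 the difference T72G falls within these letters, and A102T falls within a further CCAAT of Aldh1a1 at position -2, where positions are counted from 1 at the 5′ end of the stretch, with the Aldh1a1 base first. Such matches describe letters and not binding.

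Aldh1a1 read 10.13 and 9.39 in invasive carcinoma, 9.84 and 9.92 in carcinoma in situ, and 8.85 and 8.55 in normal urothelium. All lesion arrays were above both normal arrays, and the lesions overlapped each other. Aldh1a1 rose by 1.06 ± 0.28 in invasive carcinoma (2.09-fold, adjusted p = 0.0499), right at the threshold. This call was kept in 6 of 15 alternative settings (adjusted p from 0.0355 to 0.147), and among single arrays left out it was lost without normal array 2 (0.91), invasive array 1 (0.69) or either carcinoma in situ array (1.06). Carcinoma in situ differed from normal urothelium by 1.18 ± 0.28 and did not pass (adjusted p = 0.0609). The 95% interval of the difference between the lesions ran from -0.81 to 0.58.

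Aldh1a7 read 8.80 and 7.41 in invasive carcinoma, 10.50 and 10.48 in carcinoma in situ, and 11.28 and 10.87 in normal urothelium. The groups did not overlap, and the order was that of Adh1. Aldh1a7 fell by 2.97 ± 0.46 in invasive carcinoma against normal urothelium (7.85-fold, adjusted p = 0.00944), a call kept in all 15 alternative settings (from -3.88 to -2.28). Between the lesions it fell by 2.38 ± 0.46 in invasive carcinoma (5.21-fold, adjusted p = 0.0449). The call between the lesions was lost without either carcinoma in situ array (-2.37 and -2.39), without invasive array 2 (-1.68, adjusted p = 0.0672), with all probe sets tested (adjusted p = 0.0557) and with arrays centred on their median (adjusted p = 0.0524). Carcinoma in situ and normal urothelium differed by -0.59 ± 0.46 (adjusted p = 0.508). Each gene was read by 1 probe set, and given their similar sequence, cross-hybridisation between Aldh1a1 and Aldh1a7 was not tested.

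Aldh1a3 encodes the retinaldehyde dehydrogenase of many surface epithelia and by its brightest probe set had the largest difference of the 9 genes from normal urothelium. This probe set is the brightest only through the lesion arrays. In normal urothelium its mean of 3.79 is the lowest of the 3, beside 5.19 and 5.96. The rule that picked it thus used the arrays where it is high, and the size and rank of its difference depend on that choice. That probe set, 1448789_at, read 10.13 and 8.10 in invasive carcinoma, 7.06 and 6.95 in carcinoma in situ, and 4.04 and 3.55 in normal urothelium. The groups did not overlap, and the normal arrays lay below the median of all values. Aldh1a3 rose by 5.32 ± 0.64 in invasive carcinoma against normal urothelium (adjusted p = 0.00445), a call kept in all 15 alternative settings. In carcinoma in situ it rose by 3.21 ± 0.64 (adjusted p = 0.0387). No fold is given for these rises, since the values carry no detection call and the normal arrays may lie at background. That call was lost without either carcinoma in situ array (3.15 with adjusted p = 0.264 and 3.27 with adjusted p = 0.248) and without normal array 2 (2.97, adjusted p = 0.0536). The lesions differed by 2.11 ± 0.64 with no call (adjusted p = 0.148, 95% interval 0.53 to 3.69). The call between them appeared without invasive array 2 (3.12, adjusted p = 0.0235).

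The other Aldh1a3 probe sets showed smaller differences. Probe set 1427395_a_at read 7.26 and 5.85 in invasive carcinoma, 6.51 and 6.95 in carcinoma in situ, and 4.86 and 5.51 in normal urothelium. Its lesion arrays were above the normal arrays, but neither comparison passed (1.37 ± 0.50, adjusted p = 0.129, for invasive carcinoma, and 1.55 ± 0.50, adjusted p = 0.137, for carcinoma in situ). Probe set 1417642_at lay between 5.74 and 6.82 on all arrays, and its differences from normal urothelium were 0.44 ± 0.30 in invasive carcinoma and -0.10 ± 0.30 in carcinoma in situ, without a call. With the mean of the 3 probe sets in place of the brightest, the rise was 2.38 in invasive carcinoma (adjusted p = 0.0147) against 5.32 by the brightest and below the 2.62 of Aldh1a2, and the difference in carcinoma in situ was 1.55 with no call (adjusted p = 0.0850).

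Aldh1a2 encodes the retinaldehyde dehydrogenase of mesoderm, known from mesothelium and stroma. It read 7.39 and 8.80 in invasive carcinoma, 5.59 and 5.47 in carcinoma in situ, and 5.76 and 5.20 in normal urothelium. The invasive arrays were above all others, and carcinoma in situ and normal urothelium overlapped below the median of all values. Aldh1a2 rose by 2.62 ± 0.47 in invasive carcinoma against normal urothelium (adjusted p = 0.0160) and by 2.56 ± 0.47 against carcinoma in situ (adjusted p = 0.0403). No fold is given for these rises, since the arrays of both other groups may lie at background. Carcinoma in situ differed from normal urothelium by 0.05 ± 0.47 (95% interval -1.12 to 1.23). Without either carcinoma in situ array neither call passed (adjusted p = 0.0549 against normal urothelium, and 0.270 and 0.303 against carcinoma in situ), and the call between the lesions was also lost without invasive array 2 (1.86, adjusted p = 0.0820) and with all probe sets tested (adjusted p = 0.0502).

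Part of the stromal markers rose with Aldh1a2 in invasive carcinoma. The summed linear signal of 10 fibroblast markers was 27300 and 50100 in invasive carcinoma, 1460 and 1420 in carcinoma in situ, and 6100 and 4020 in normal urothelium. Of these markers 5 rose and 0 fell in invasive carcinoma against normal urothelium, and 7 rose and 0 fell against carcinoma in situ. Those that rose against normal urothelium included Pdgfrb (5.77) and the collagen genes Col1a1, Col1a2 (4.44) and Col3a1 (3.46), while Dcn, decorin, did not pass (0.94). Of 8 mesothelial markers, of which Krt19 and Upk3b are also urothelial, Msln (3.78) and Bnc1 (2.26) rose and Upk3b (-2.52) and Gpm6a (-2.88) fell in invasive carcinoma against normal urothelium, and 3 rose and 0 fell against carcinoma in situ. Of 8 macrophage markers 7 rose and of 8 endothelial markers 8 rose in invasive carcinoma against normal urothelium, as did 2 of 8 smooth muscle markers, while 1 smooth muscle marker fell. Of 6 adipocyte markers 0 rose and 1 fell. Carcinoma in situ against normal urothelium, where Aldh1a3 rose, had 4 of 8 endothelial markers up and 0 down, with Vwf at 3.45 and Cdh5 at 3.04. There 1 of 8 macrophage markers rose, and 1 of 10 fibroblast markers rose and 1 fell. These were Pdgfrb (2.08) and Dcn (-4.99), in a comparison where Aldh1a2 differed by 0.05. The part of these cells in the levels of the 9 genes was not tested.

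**Figure D3:**
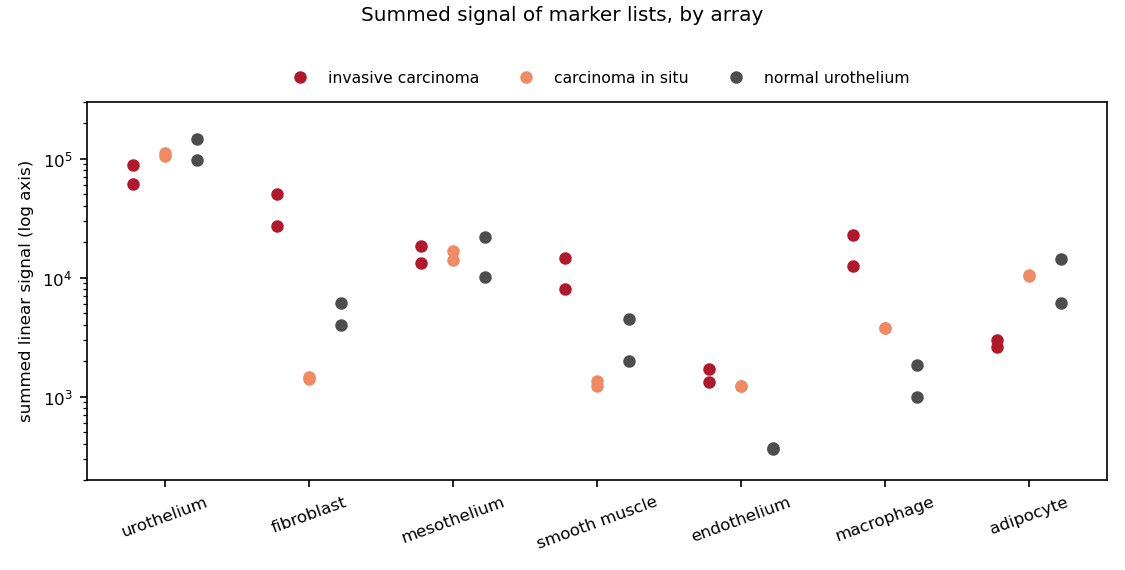
Summed linear signal (log axis) of the markers of 7 tissues and cell types, with 1 point per array. A linear sum follows its brightest markers. For adipocytes this is Fabp4 (11.14 to 13.79 on the log2 scale), while Adipoq, Cidec and Lep read 3.69 to 4.12. For mesothelium it is Krt19 (12.31 to 13.81), which is also urothelial. The fibroblast sum is 27300 and 50100 in the invasive arrays, above 1460 and 1420 in carcinoma in situ and 6100 and 4020 in normal urothelium, and the macrophage sum is highest in the invasive arrays too.

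Aldh3a1 encodes an aldehyde dehydrogenase that is abundant in cornea and acts on aldehydes of lipid peroxidation. It read 10.03 and 10.32 in invasive carcinoma, 5.81 and 5.72 in carcinoma in situ, and 6.21 and 9.97 in normal urothelium. Invasive carcinoma was above and carcinoma in situ below both normal arrays, which lay 3.76 apart. No comparison passed. The difference was 2.08 ± 1.13 for invasive carcinoma against normal urothelium (adjusted p = 0.267) and -2.32 ± 1.13 for carcinoma in situ against normal urothelium (adjusted p = 0.285). Between the lesions it was 4.41 ± 1.13 (adjusted p = 0.0998), with no fold given, since the carcinoma in situ arrays may lie at background. The result depended on which normal array was kept. Without normal array 1 the difference of carcinoma in situ from normal urothelium was -4.20 (adjusted p = 0.00156), and without normal array 2 that of invasive carcinoma was 3.96 (adjusted p = 0.000480). With either normal array left out the lesions differed by 4.41 with an adjusted p of 0.000283. These fits leave out the wide gap between the normal arrays.

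Crabp2 encodes the protein that carries retinoic acid to its nuclear receptors. It read 9.05 and 9.70 in invasive carcinoma, 9.16 and 9.28 in carcinoma in situ, and 8.33 and 6.36 in normal urothelium. All lesion arrays were above both normal arrays, which differed by 1.98. The differences from normal urothelium were 2.03 ± 0.64 in invasive carcinoma (adjusted p = 0.0812, 95% interval 0.45 to 3.60) and 1.87 ± 0.64 in carcinoma in situ (adjusted p = 0.144, 95% interval 0.30 to 3.45). Without normal array 1 the differences of Crabp2 were 3.01 in invasive carcinoma and 2.86 in carcinoma in situ, and without normal array 2 they were 1.04 and 0.88. These fits leave out the spread of the normal arrays, so no call is taken from them. Between the lesions the interval ran from -1.42 to 1.73.

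Rarb encodes retinoic acid receptor beta, whose promoter holds the best-known retinoic acid response element. The element is shown because it links the enzymes to a gene that answers to their product. It is a DR5, a direct repeat of the receptor's half-site with 5 bases between, and it was found at position -53 in the RefSeq window of Rarb (GRCm38.p6, minus strand, chr14:16575463-16575579 for the stretch shown). The half-sites are in capitals.
Rarb: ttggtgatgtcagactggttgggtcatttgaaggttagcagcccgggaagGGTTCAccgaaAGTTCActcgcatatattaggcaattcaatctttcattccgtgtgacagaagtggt

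A DR5 on either strand was in 0.0974% of the 32851 windows. The windows of Adh1, Adh7, Aldh1a1, Aldh1a2 and Aldh1a7 held no DR5 and no DR2, its form with 2 bases between, which was in 0.268% of windows. Rarb itself read 6.87 and 6.83 in invasive carcinoma, 6.86 and 7.11 in carcinoma in situ, and 7.34 and 5.96 in normal urothelium. All lesion arrays lay between the 2 normal arrays. Its difference from normal urothelium was 0.20 ± 0.44 in invasive carcinoma (95% interval -0.90 to 1.30) and 0.33 ± 0.44 in carcinoma in situ (95% interval -0.77 to 1.43). The sign turned on which normal array was kept. Without normal array 1 the differences were 0.89 (adjusted p = 0.0199) in invasive carcinoma and 1.03 (adjusted p = 0.0167) in carcinoma in situ, and without normal array 2 they were -0.50 and -0.36 with no call. These fits leave out the spread of the normal arrays.

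**Figure D4:**
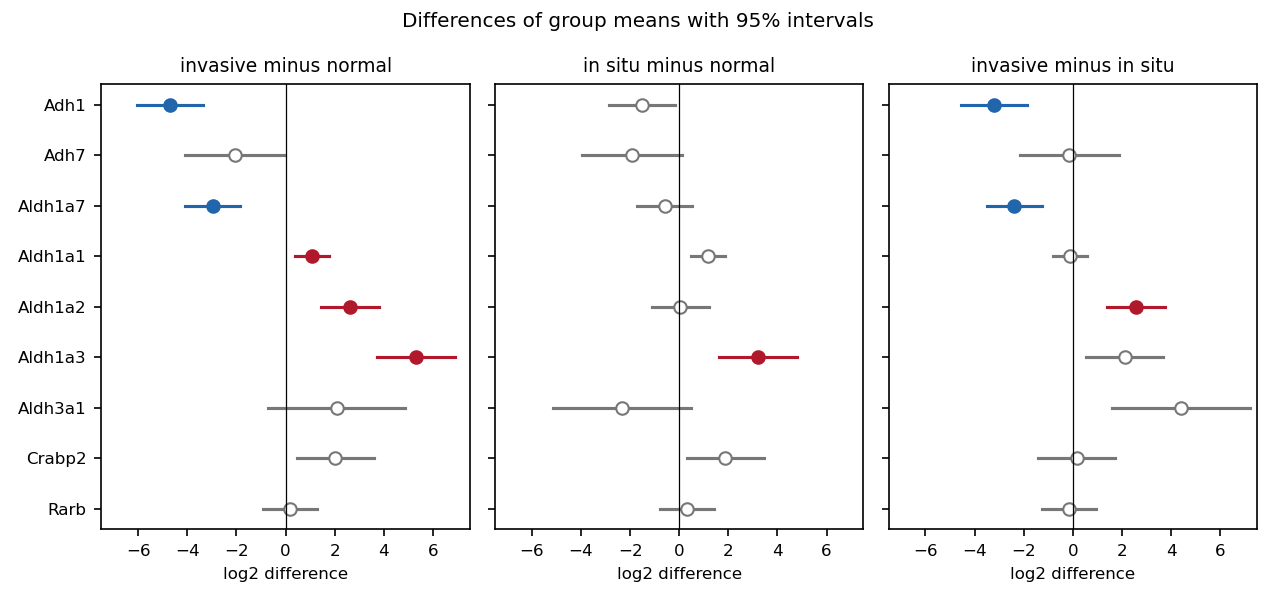
Differences of mean log2 signal for the 9 genes in the 3 comparisons, with 95% intervals from limma; filled red points rose, filled blue points fell and open grey points did not pass an adjusted p of 0.05. Aldh1a3 is at 5.32 and Adh1 at -4.72 in invasive carcinoma against normal urothelium, and the intervals of Aldh3a1 are the widest.

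By comparison, 5 of the 9 genes changed in invasive carcinoma against normal urothelium, 3 up (Aldh1a1, Aldh1a2 and Aldh1a3) and 2 down (Adh1 and Aldh1a7), where 20.1% of all 18193 genes were called (12.6% up and 7.46% down). The median difference of the 9 genes was 1.06, beside 0.00 over all genes. The members were chosen with earlier results of these data known, so the shares and medians here do not test the 9 genes as a set. In carcinoma in situ against normal urothelium 1 of 9 changed, Aldh1a3, which is near the 8.78% called over all genes (5.74% up and 3.04% down). Between the lesions 3 of 9 changed, Aldh1a2 up and Adh1 and Aldh1a7 down, where 5.49% of all genes were called (4.18% up and 1.31% down). Without carcinoma in situ array 1 or array 2, Adh1, Aldh1a3 and Aldh1a7 stayed called in invasive carcinoma against normal urothelium. The calls of the 9 genes in the other comparisons were lost. Over all genes limma also called fewer in each comparison, so the losses are not particular to the 9 genes. Without both invasive array 1 and normal array 2, a setting chosen after seeing the data, it called 8, 6 and 7 of the 9 genes and 8165, 6352 and 5897 of all genes, with the spread taken from the close carcinoma in situ arrays alone. The arrays of the groups did not overlap for 8, 7 and 5 of the 9 genes, beside 56.8%, 54.4% and 57.9% of all genes. The first and second comparison share the normal arrays, and the third shares arrays with both.

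The other genes of the pathway and of both enzyme families were read from 7 lists with 74 measured genes. Of these 12 rose and 16 fell in invasive carcinoma against normal urothelium, 4 rose and 5 fell in carcinoma in situ, and 7 rose and 2 fell in invasive carcinoma against carcinoma in situ. In this order limma called 28, 9 and 9 of the 74 genes, beside 20.1%, 8.78% and 5.49% of all genes. Without carcinoma in situ array 1 or array 2 fewer of the 74 were called in invasive carcinoma against normal urothelium. Their calls in the other comparisons were lost. Calls over all genes also became fewer in each comparison, so this fall is not particular to the pathway.

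Among 9 genes of retinoid uptake and carriage, 2 rose and 2 fell in invasive carcinoma against normal urothelium (median 0.40). Stra6, the membrane receptor for the retinol carrier Rbp4, read 7.10 and 7.47 in invasive carcinoma against 5.55 and 5.96 in normal urothelium, a rise of 1.53 ± 0.22 (adjusted p = 0.00798). Crabp1, another cellular retinoic acid binding protein, read 5.83 and 6.27 in invasive carcinoma against 3.54 and 3.71 in normal urothelium. This rise was 2.43 ± 0.20 (adjusted p = 0.00156), and no fold is given, since the normal arrays may lie at background. Fabp5, a fatty acid binding protein that can also bind retinoic acid, fell by 1.15 ± 0.18. Ttr, whose product travels in blood with Rbp4, fell by 6.69 ± 0.23 in invasive carcinoma. It also fell by 6.68 ± 0.23 in carcinoma in situ. The binding protein gene Rbp7 rose by 1.07 ± 0.23 in carcinoma in situ (adjusted p = 0.0497), where 1 of these 9 genes rose and 1 fell. Rbp7 read 5.23 and 5.22 there and 4.23 and 4.08 in normal urothelium, all below the median of all values. Between the lesions 3 rose and 0 fell. Rbp4 read 8.55 and 8.85 in invasive carcinoma against 5.29 and 5.53 in carcinoma in situ (3.29 ± 0.61, adjusted p = 0.0408), and Crabp1 (2.47 ± 0.20) and Stra6 (1.51 ± 0.22) also rose.

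Of 15 retinol and retinal oxidoreductase genes 1 rose and 5 fell in invasive carcinoma against normal urothelium (median -0.22). Rdh10, the retinol dehydrogenase that makes retinal in the embryo, read 11.23 and 10.52 in invasive carcinoma against 9.37 and 9.23 in normal urothelium and rose by 1.57 ± 0.27 (2.98-fold, adjusted p = 0.0130). Of the genes that fell, Rdh12 fell by 3.17 ± 0.44, Rdh14 fell by 1.91 ± 0.35 and Rdh11 fell by 1.62 ± 0.37, and each encodes a dehydrogenase that can reduce retinal. Rdh14 also fell in carcinoma in situ (by 2.23 ± 0.35), the only call of the list there, and Rdh12 between the lesions (by 2.54 ± 0.44), again the only call. For the breakdown of retinoic acid, Cyp26b1, a hydroxylase of retinoic acid, rose by 1.26 ± 0.28 and Cyp2s1, a cytochrome P450 of epithelia, fell by 1.25 ± 0.32 in invasive carcinoma, and Cyp26a1 did not pass (0.04). Cyp26b1 also rose between the lesions (1.87 ± 0.28). In carcinoma in situ 0 of these 3 genes passed, with Cyp26b1 at -0.60 and Cyp2s1 at -0.46.

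Of 10 receptor and cofactor genes the coactivator gene Ncoa1 fell by 1.33 ± 0.21 in invasive carcinoma and by 1.04 ± 0.21 in carcinoma in situ, and the other 9 did not pass in either. Between the lesions 0 of 10 passed, with Rxra, a partner of retinoic acid receptors, at -0.99 and Ncoa3 at -0.39. Genes known to be induced by retinoic acid went both ways. Of 19, of which 6 are also in the lists above, 5 rose and 6 fell in invasive carcinoma against normal urothelium, with a median of 0.10. The transglutaminase gene Tgm2 rose by 2.76 ± 0.53 and Stra6 rose as above, and the homeobox gene Meis1 (by 3.24 ± 0.24) and Tnfaip2 (by 1.54 ± 0.15) fell. Meis2 rose (1.41 ± 0.24) and Meis1 (by 1.70 ± 0.24) and Tnfaip2 (by 1.01 ± 0.15) fell in carcinoma in situ. Between the lesions Cyp26b1 and Stra6 rose and Meis1 fell by 1.55 ± 0.24.

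In the enzyme families, 1 of 9 further alcohol dehydrogenases and aldo-keto reductases rose in invasive carcinoma and 0 fell. This was Akr1c18, a progesterone-reducing aldo-keto reductase, which rose by 2.22 ± 0.21 against normal urothelium and also rose against carcinoma in situ (adjusted p = 0.00736). Carcinoma in situ had 0 calls among these 9, with Akr1b8 at 2.03 and Adh6a at -0.59. Of 15 further aldehyde dehydrogenases 4 rose and 2 fell in invasive carcinoma against normal urothelium. Aldh2, the mitochondrial enzyme that clears acetaldehyde, read 10.89 and 10.92 in invasive carcinoma, 8.31 and 8.22 in carcinoma in situ, and 6.13 and 7.82 in normal urothelium. It rose by 3.93 ± 0.52 against normal urothelium (15.3-fold, adjusted p = 0.00606) and by 2.64 ± 0.52 against carcinoma in situ (adjusted p = 0.0492). Aldh1l2, a mitochondrial folate enzyme, rose by 1.91 ± 0.24 and 2.06 ± 0.24 in these comparisons, and Aldh3b2 (by 2.37 ± 0.51) and Aldh6a1 (by 2.35 ± 0.45), an enzyme of valine breakdown, fell against normal urothelium. Aldh1l1 (1.13 ± 0.23) and Aldh3b1 (1.13 ± 0.17) rose in carcinoma in situ against normal urothelium, where 0 of the 15 fell.

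**Figure D5:**
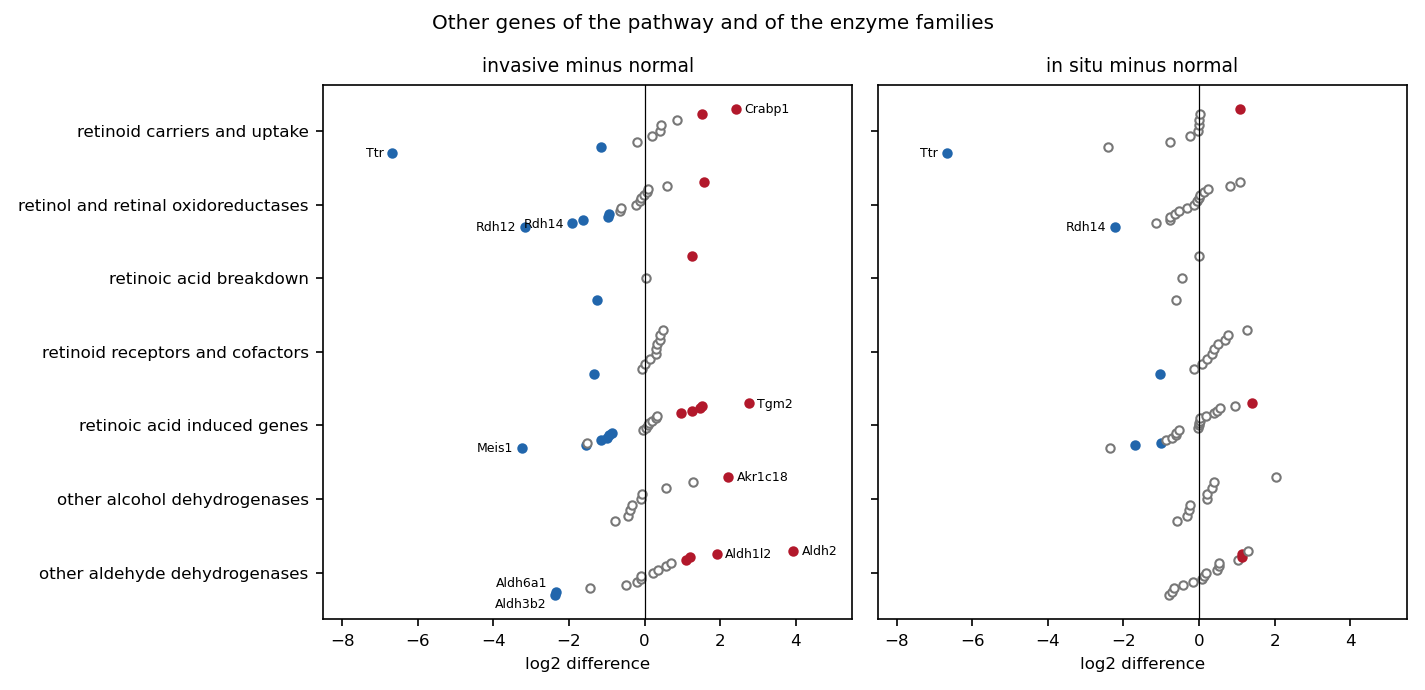
Differences of mean log2 signal from normal urothelium for the other genes of 7 lists, with 1 point per gene, in invasive carcinoma (left) and carcinoma in situ (right); filled red points rose, filled blue points fell and open points did not pass. The list of alcohol dehydrogenases includes aldo-keto reductases, and Ttr at -6.69 and -6.68 lies farthest from 0.

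The genes most like the 5 called members were sought by Pearson's r over the 6 arrays, among genes whose standard deviation over the arrays was at least 1. Provisional symbols, Xist and Y-linked genes such as Kdm5d were left out beforehand. The arrays share their groups, so high values are common, and 25 to 193 of about 1471 genes exceeded an r of 0.95 for a member. Adh1 was most like Upk3a (0.999), Upk1b (0.992) and Fam25c (0.992). Aldh1a7 was most like Sptssb (0.998), Syt16 (0.997) and Tmem238l (0.990). Aldh1a1 was most like Sox7 (0.996), Calcb (0.990) and Bcl2l15 (0.989). Aldh1a3 was most like Cdh13 (0.996), Anxa10 (0.996) and Aqp4 (0.995). Aldh1a2 was most like Pappa (0.999), Olfml3 (0.997) and Rcn3 (0.996).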

How the data were processed

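Partek and RMA are named, without versions, per the submitters' processing notes. The deposited table holds log2 signals of 45101 probe sets on 6 arrays, which the authors' RMA brought to a common distribution, so that any difference in the total amount of RNA is lost. Per the labels' protocols 100 ng of RNA per sample was amplified for a 3' array. A table of fold changes deposited with it was not used here, and neither were the genes altered in the transgenic mice, so the genotype was not checked. The genome build is not given in the sources used here.

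Of the probe sets, 34945 had 1 symbol in the array annotation and were no controls. Symbols were updated through RefSeq (GRCm38.p6). Each of 18193 genes was represented by its brightest probe set. All 6 arrays entered 1 model of 3 group means in limma 3.58.1 (R 4.3.3) with eBayes, 3 residual and 2.69 prior degrees of freedom, and p-values are two-sided. The fit was also run on simulated data, with independent arrays and the same spread in every group. These arrays differ in spread between groups, so that run does not test the error rate of the calls. The members, lists and rules were chosen with earlier results of these data known. From each list up to 4 called genes with the largest change were named per comparison, or up to 2 given as values where none passed. The alternatives were a replicate block, each array left out, a variance trend, a filter on dim genes, all probe sets, their mean, 2 groups only, median centring, averaged carcinoma in situ arrays and, added after seeing the data, 2 arrays left out together.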

Additional observations from a re-analysis of the deposited data

How the results depend on the processing

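Values are given for invasive carcinoma against normal urothelium, carcinoma in situ against normal urothelium and invasive carcinoma against carcinoma in situ, in this order, where limma called 5, 1 and 3 of the 9 genes and 3652, 1597 and 999 of all genes. Over each array left out in turn the calls ran from 3 to 7, 0 to 5 and 0 to 4 of the 9 genes, and from 1637 to 5699, 0 to 4196 and 50 to 2493 of all genes. With the carcinoma in situ arrays averaged, 3, 0 and 0 of the 9 genes were called (2 and 4 at an unadjusted p under 0.05 in the comparisons with 0) and 1832, 0 and 55 of all genes (2320 at an unadjusted p under 0.05 for the 0). With only the 2 groups compared, 3, 3 and 4 were called, and 1832, 947 and 2493 of all genes. Without both normal array 2 and invasive array 1, a setting chosen after seeing the data, 8, 6 and 7 were called, and 8165, 6352 and 5897 of all genes. With all probe sets tested, 4, 1 and 1 genes were called by their brightest probe set and 5, 2 and 1 by any of theirs (Adh7 by its second). In the comparisons with normal urothelium 6368 and 2653 of 34945 probe sets were called. The count over all probe sets between the lesions is not given here, so the 1 gene called there has no share beside it. Of the differences of the 9 genes over these settings, 327 kept direction and call, 34 gained a call, 33 lost it and 11 changed sign, none of them with a call. The replicate numbers in the labels tie arrays to no shared animal, and same-numbered arrays deviated with a correlation over genes of 0.37, -0.39 and -0.34, so they were not taken as pairs. With the replicate block 5, 1 and 2 of the 9 genes and 3315, 1146 and 887 of all genes were called, and Aldh1a2 lost its call between the lesions (2.56, adjusted p = 0.0565). The causes of these shifts were not tested.

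The changes of sign were small. In carcinoma in situ against normal urothelium Aldh1a2 ranged from -0.23 to 0.33 and Rarb from -0.36 to 1.03 with single arrays left out, and they were -0.23 and -0.36 without both arrays. In invasive carcinoma against normal urothelium Rarb ranged from -0.50 to 0.89 and was -0.51 without both arrays. Between the lesions Adh7 ranged from -0.31 to 0.02 and was 0.04 by the mean of its probe sets, Aldh1a1 ranged from -0.49 to 0.26 and Crabp2 from -0.17 to 0.48. The dimmer Aldh1a3 probe sets ranged from -0.22 to 0.02 (1417642_at, carcinoma in situ against normal urothelium) and from -0.89 to 0.53 (1427395_a_at, between the lesions), and 1417642_at was -0.02 in invasive carcinoma against normal urothelium without both arrays. The depth of an array is set by signal over background, which RMA does not report, so whether low levels such as Aldh1a3 in normal urothelium lie above background is not known.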
